A study of Homo sapiens with 8 samples.

Results

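The genes described here are 5 DNA topoisomerases (TOP1, TOP2A, TOP2B, TOP3A and TOP3B) and 4 zinc finger proteins that shape chromatin architecture (CTCF, YY1, ZNF143 and MAZ), taken by name from a table of RNA counts. They are 9 of the 57736 gene IDs in the table, and all 9 were among the 16657 genes with enough counts to be tested. The RNA came from RMG1, a human line of ovarian clear cell carcinoma, in 4 groups of 2 libraries. In the ARID1A KO cells, ARID1A was targeted by CRISPR and CAPH2 was left wild type; they are set against ARID1A WT cells, which were unaltered at both genes. In the CAPH2 KD cells, an shRNA (shCAPH2) lowered CAPH2 in cells with wild-type ARID1A; they are set against shControl cells, which carried a control shRNA and were wild type at both genes. ARID1A helps SWI/SNF remodellers engage DNA, and CAPH2, encoded by NCAPH2, belongs to condensin II, which compacts chromosomes. Whether the knockout line is a single clone, and whether the libraries of a group are separate cultures, is not given in the sources used here, so the p-values measure how far these libraries differ, and that spread can be technical.

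Topoisomerases cut and rejoin DNA to release the twisting and tangling that transcription, replication and chromosome segregation cause. Type I enzymes cut a single strand: TOP1 relaxes supercoils ahead of polymerases, TOP3A resolves recombination intermediates and decatenates mitochondrial DNA, and TOP3B acts on both DNA and RNA. Type II enzymes cut both strands and pass another duplex through: TOP2A is made in dividing cells and untangles sister chromatids beside condensin in mitosis, while TOP2B is also present in resting cells and acts at promoters and loop anchors. CTCF stops cohesin at the borders of chromatin loops, YY1 bridges enhancers and promoters, ZNF143 binds promoters, often near CTCF, and MAZ is a promoter factor that can also act as an insulator.

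Library totals lay between 24559547 and 37378691 counts, and log2 levels of the libraries of a group correlated at 0.981 to 0.987 across genes. ARID1A stood at 6.66 and 5.61 CPM (counts scaled to a common library size, with trimmed-mean factors) in ARID1A KO libraries and at 8.80 and 12.1 CPM in ARID1A WT libraries. NCAPH2 stood at 8.98 and 8.74 CPM in CAPH2 KD libraries and at 24.0 and 25.8 CPM in shControl libraries. Both fell (log2 fold change −0.77, SE 0.16, adjusted p = 0.00274, and −1.49, SE 0.10, adjusted p = 1.84e-06; edgeR quasi-likelihood test). NCAPH2 was also called lower in the knockout, with 21.0 and 23.9 CPM in ARID1A KO libraries, against 26.8 and 30.0 CPM in ARID1A WT libraries (−0.34, SE 0.093, adjusted p = 0.0144), and its part in the knockout's results was not tested. Summed levels of 7 ovarian clear cell and epithelial markers were 2186 to 2337 CPM per library over the 4 groups, while single markers moved in both directions. In the knockout 2 of the 7 were called higher (CDH1, 0.96, and EPCAM, 0.29) and 3 lower (KRT8, −0.70, KRT7, −0.52, and NAPSA, −0.75), and in the knockdown NAPSA was called higher (0.85) and PAX8 lower (−0.49). Of all genes tested, 34.5% were called in the knockout and 15.8% in the knockdown. Summed levels of 5 leukocyte markers were 2.33 to 2.57 CPM in ARID1A KO libraries, against 0.407 to 0.442 CPM in ARID1A WT libraries, and 0.661 to 1.17 CPM in CAPH2 KD libraries, against 0.244 to 0.272 CPM in shControl libraries. Those of 6 fibroblast markers were 1.02 to 1.19 CPM in ARID1A KO libraries, against 0.479 to 0.529 CPM in ARID1A WT libraries, and 0.285 to 0.377 CPM in CAPH2 KD libraries, against 0.408 to 0.487 CPM in shControl libraries. The part of these low levels in the results was not tested. The 3 endothelial markers reached at most 0.122 CPM, and COL1A2, CD3E and KDR had no count in any library. In such bulk RNA, fewer cells of a type and less RNA per cell cannot be told apart.

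Upstream sequences of TOP2A, TOP2B and YY1 are shown because these 3 members passed the test in a comparison of perturbed with control cells. Each line holds the 250 bases before the RefSeq start on GRCh38.p14, read 5′ to 3′ on the strand of the gene; capitals mark the CCAAT box, the TTTGAA element (the cell cycle homology region of genes expressed in G2 and M phases) and GGGCGG (the SP1 box), or their reverse complements. They lie at chr17:40417897-40418146 (minus strand), chr3:25664908-25665157 (minus strand) and chr14:100238894-100239143 (plus strand). TOP2B has 2 starts in the RefSeq table, of which the one farther upstream is shown.
TOP2A: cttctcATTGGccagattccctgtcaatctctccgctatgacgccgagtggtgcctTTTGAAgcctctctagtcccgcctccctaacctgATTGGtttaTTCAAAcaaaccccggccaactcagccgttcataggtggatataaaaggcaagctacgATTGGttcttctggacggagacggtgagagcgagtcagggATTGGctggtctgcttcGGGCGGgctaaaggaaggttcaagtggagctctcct
TOP2B: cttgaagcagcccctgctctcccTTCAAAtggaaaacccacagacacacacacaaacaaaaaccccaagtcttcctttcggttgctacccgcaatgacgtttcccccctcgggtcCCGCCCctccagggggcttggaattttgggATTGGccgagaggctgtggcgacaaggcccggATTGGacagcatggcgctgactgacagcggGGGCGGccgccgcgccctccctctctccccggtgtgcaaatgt
YY1: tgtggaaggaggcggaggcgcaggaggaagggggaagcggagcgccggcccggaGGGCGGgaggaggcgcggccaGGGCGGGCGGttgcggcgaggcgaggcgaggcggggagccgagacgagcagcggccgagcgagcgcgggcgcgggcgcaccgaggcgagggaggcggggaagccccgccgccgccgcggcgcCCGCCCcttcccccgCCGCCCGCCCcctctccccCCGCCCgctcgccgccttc

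The TOP2A sequence held 4 CCAAT boxes, all as ATTGG, the nearest 53 to 49 bases before the start, together with 2 TTTGAA elements and 1 GGGCGG. The TOP2B sequence held 2 CCAAT boxes, 1 TTTGAA and 2 GGGCGG. The YY1 sequence, with 83.2% G and C, held 7 GGGCGG, some of them overlapping, and neither of the other motifs. Among 35116 RefSeq upstream sequences of the same 250 bases, 32% held a CCAAT on either strand, 13.3% a TTTGAA and 42.6% a GGGCGG. Of the 9 members, CCAAT was found in 3 (TOP2A, TOP2B and ZNF143) and TTTGAA in 3 (TOP2A, TOP2B and CTCF). The MAZ motif GGGAGGG, held by 24.7% of all sequences, was found upstream of TOP2B, CTCF and MAZ, with 4 matches at MAZ itself, overlapping ones counted. The YY1 motif AANATGGCG (1.38% of sequences) matched none of the 9. A core motif of ZNF143 (0.552%) matched none either, and one of CTCF (8.9%), both searched with N at their variable positions, matched TOP2B alone. Such matches describe the letters and do not show binding.

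Per length, the members spanned a wide range of levels. TOP2A was the most abundant, at 211 ± 31.3 CPM per kb of exon (mean ± SD over 8 libraries), above 99.3% of 12930 protein-coding genes tested. TOP2B followed at 65.3 ± 10.3 CPM per kb and TOP1 at 25.9 ± 2.99 CPM per kb. ZNF143 (12.2 ± 1.69 CPM per kb) and YY1 (11.3 ± 1.34 CPM per kb) came next, and their order turned between groups. ZNF143 averaged 13.8 ± 0.112 CPM per kb and YY1 9.62 ± 0.476 CPM per kb in ARID1A KO libraries (SD, n = 2), without overlap, while in ARID1A WT libraries (13.6 ± 1.16 for ZNF143 and 11.98 ± 1.81 CPM per kb for YY1) they overlapped. YY1 was the higher of the pair in CAPH2 KD libraries (10.2 ± 0.193 for ZNF143 and 11.5 ± 0.724 CPM per kb for YY1) and in shControl libraries (11.3 ± 0.0418 for ZNF143 and 12.3 ± 0.188 CPM per kb for YY1). CTCF stood at 6.14 ± 0.464 CPM per kb, MAZ at 1.79 ± 0.250, TOP3B at 1.26 ± 0.116 and TOP3A at 0.640 ± 0.103 CPM per kb. The other 7 members held the same rank in every group. The order of the means over 8 libraries was the same with the longest transcript as the length, where ZNF143 was above YY1 in shControl libraries too. Of the summed level of the 5 topoisomerases per length, TOP2A made up 66.0% to 71.3% in each library. TOP3A, with 93 to 157 counts a library, MAZ (115 to 252) and TOP3B (176 to 351) were the least precisely measured.

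**Figure D1:**
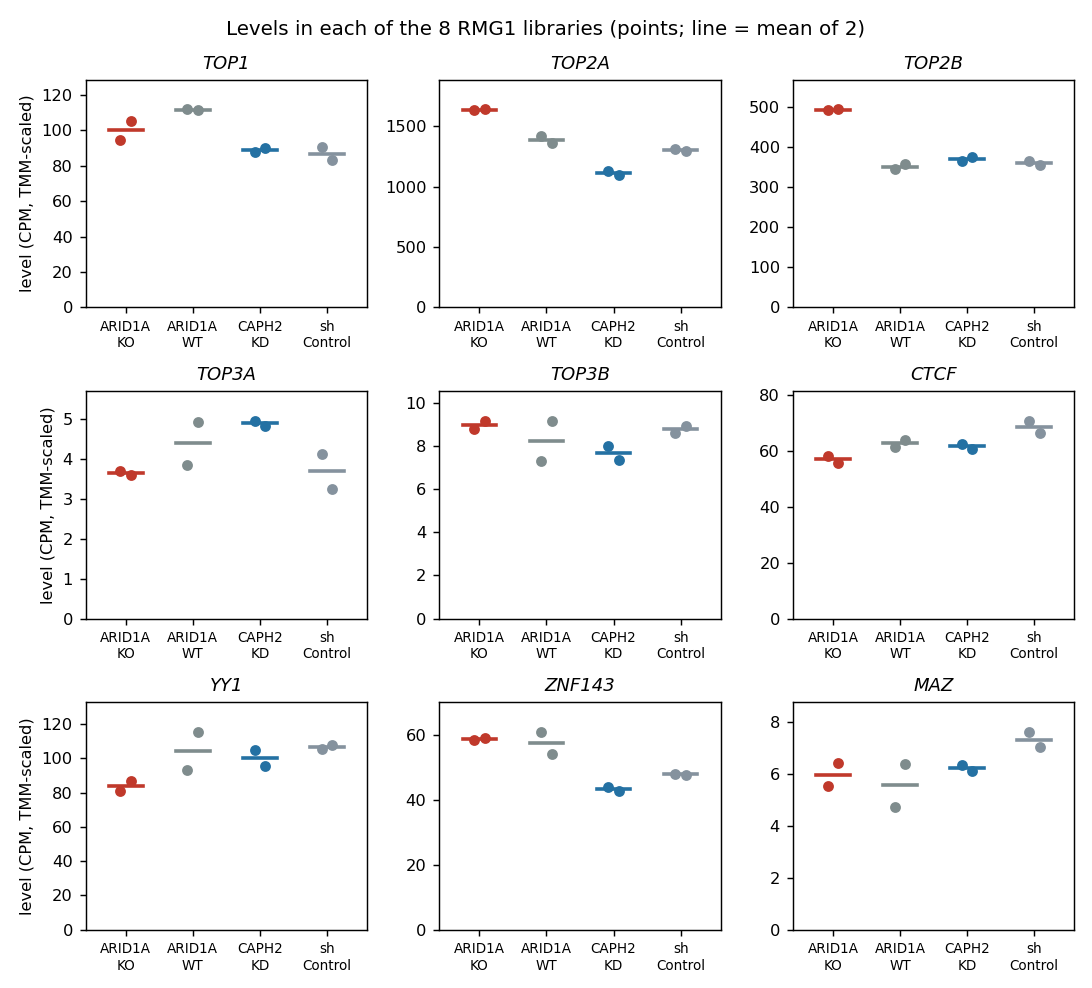
Level of each member (CPM after scaling, vertical axis from 0) in the ARID1A KO, ARID1A WT, CAPH2 KD and shControl libraries; points are libraries and lines are means of 2. TOP2B stands at 493 and 495 CPM in ARID1A KO libraries and at 346 to 376 CPM in the other 6.

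The comparison of ARID1A KO with ARID1A WT cells asked which transcripts differed between these cells. Of the 9 members, 3 changed: TOP2A and TOP2B rose and YY1 fell. Across all 16657 genes, 34.5% were called in this comparison (16.8% higher and 17.8% lower, adjusted p under 0.05), so 3 of 9 is close to the share of all genes. The median size of the members' log2 fold changes was 0.16, against 0.31 over all genes. In CAPH2 KD against shControl cells, 1 of the 9 changed, TOP2A, which fell. There, 15.8% of all genes were called (7.62% higher and 8.22% lower), and the median size was 0.15 for the members, against 0.21 over all genes. The next paragraphs take the members by their roles.

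**Figure D2:**
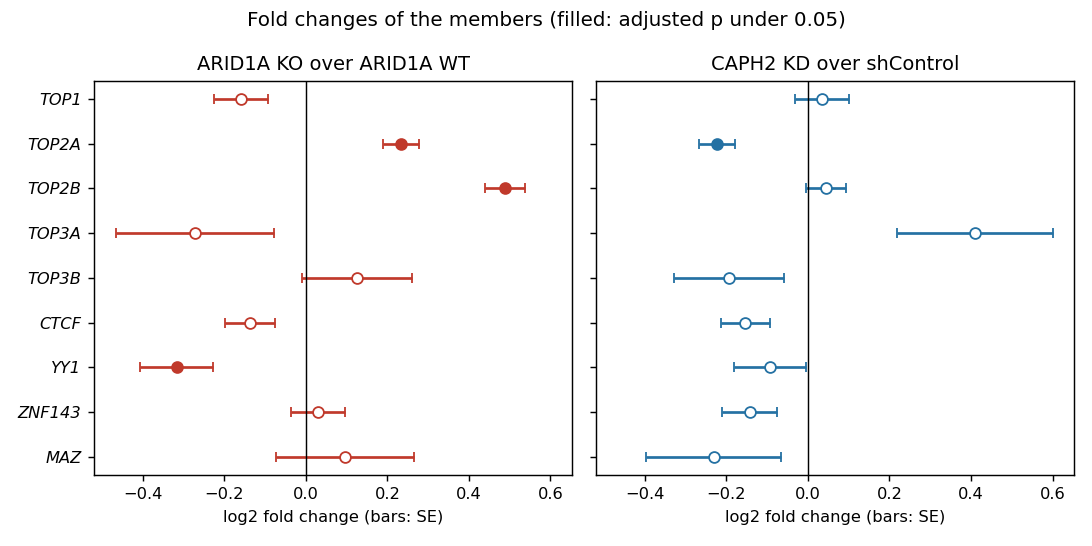
Log2 fold change of each member (horizontal axis; bars are SE) in ARID1A KO over ARID1A WT cells (left) and in CAPH2 KD over shControl cells (right), with filled points for an adjusted p under 0.05. TOP2A lies at 0.23 in the knockout and −0.22 in the knockdown, and TOP2B at 0.49 and 0.044.

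TOP2A, the type II enzyme of dividing cells, had 1632 and 1640.3 CPM in ARID1A KO libraries, against 1418 and 1365 CPM in ARID1A WT libraries. Both knockout libraries were above both wild-type libraries, and the rise passed the test (log2 fold change 0.23, SE 0.044, adjusted p = 0.00155). In the knockdown, TOP2A had 1128 and 1099 CPM in CAPH2 KD libraries, against 1309 and 1292 CPM in shControl libraries. The groups did not overlap, and the fall passed (−0.22, SE 0.044, adjusted p = 0.00464). This fall lost its call without shControl library 1 (−0.22, adjusted p = 0.0566) or without CAPH2 KD library 2 (−0.21, adjusted p = 0.0548), in a range of 2.82e-05 to 0.0566 over 15 alternatives. The rise in the knockout kept its call under all 15.

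TOP2B, the paralog that is also present in resting cells, had 493 and 495 CPM in ARID1A KO libraries, against 346 and 359 CPM in ARID1A WT libraries. It was the largest change of a member that passed (log2 fold change 0.49, SE 0.049, adjusted p = 1.4e-05, a 1.40-fold rise), and it was called under all 15 alternatives. In the knockdown, TOP2B had 367 and 376 CPM in CAPH2 KD libraries, against 366 and 355 CPM in shControl libraries. The knockdown libraries were slightly above both controls, and the difference did not pass (0.044, SE 0.049, adjusted p = 0.623).

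The effects in the knockout and the knockdown share no library, so their difference was tested directly. It passed for TOP2A (knockout effect minus knockdown effect 0.46 on the log2 scale, SE 0.062, adjusted p = 0.000213) and for TOP2B (0.44, SE 0.069, adjusted p = 0.000609). These were 2 of the 9 members, both higher, where 26.3% of all genes were called (12.3% higher and 14.0% lower). Both calls held under all 14 alternatives run for this test.

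The ratio of TOP2A to TOP2B within a library does not depend on how libraries are scaled. Per length, it was 3.11 and 3.11 in ARID1A KO libraries, against 3.85 and 3.57 in ARID1A WT libraries. It was 2.89 and 2.75 in CAPH2 KD libraries, against 3.36 and 3.42 in shControl libraries. The ratio was thus lower in both perturbed groups than in their own controls, with no overlap in either pair; in the knockout TOP2B had risen more than TOP2A, and in the knockdown TOP2A had fallen. A two-sided exact permutation test of the log2 ratio gave p = 0.333 in each pair, the smallest that 2 libraries against 2 allow.

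Genes next to TOP2B on chromosome 3 were mostly higher in the knockout too. Among its 40 nearest tested protein-coding genes in GENCODE 29 order, 34 had positive values. Of the 40, 25 were called higher and 3 lower (16.8% and 17.8% of all genes), with a median log2 fold change of 0.43. TOP2B minus that median was 0.056. For TOP2A on chromosome 17, 7 of 40 neighbours were called higher and 11 lower, with a median of −0.098, so TOP2A minus the median was 0.33. In the knockdown, the neighbours' medians were 0.081 for TOP2B and −0.0099 for TOP2A. The part of the neighbourhood in these changes was not tested.

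**Figure D3:**
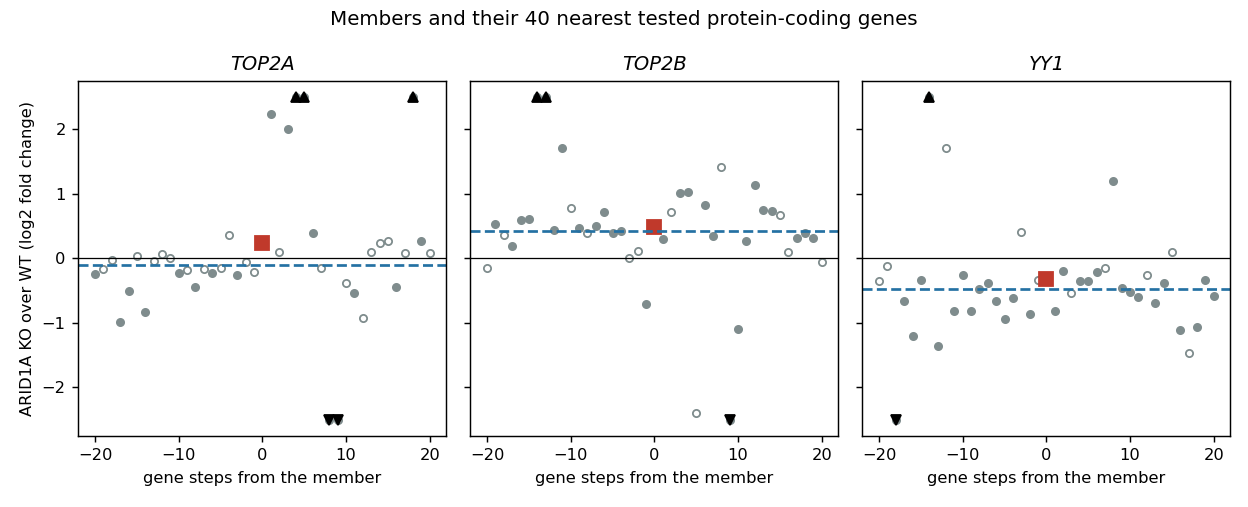
Log2 fold change in ARID1A KO over ARID1A WT cells of TOP2A, TOP2B and YY1 (red squares) and of their 40 nearest tested protein-coding genes (grey, filled where called) by steps along the chromosome; the dashed line is the neighbours' median and black triangles mark genes beyond 2.5. The dashed line lies at −0.098 for TOP2A, 0.43 for TOP2B and −0.47 for YY1.

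TOP1, the type I enzyme that relaxes supercoils in transcribed genes, had 94.4 and 105 CPM in ARID1A KO libraries, against 112 and 111 CPM in ARID1A WT libraries. Both knockout libraries were lower, but the difference did not pass (log2 fold change −0.16, SE 0.066, adjusted p = 0.0861). It passed only without ARID1A KO library 2 (−0.24, adjusted p = 0.047, in a range of 0.047 to 0.484 over 15 alternatives). In the knockdown, TOP1 had 87.8 and 89.9 CPM in CAPH2 KD libraries, against 90.4 and 83.0 CPM in shControl libraries, which overlap (0.035, adjusted p = 0.79). All 4 libraries with an shRNA were below both ARID1A WT libraries.

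TOP3A and TOP3B, the type IA enzymes, were low throughout. TOP3A had 3.70 and 3.58 CPM in ARID1A KO libraries, against 3.84 and 4.93 CPM in ARID1A WT libraries (log2 fold change −0.27, SE 0.19, adjusted p = 0.316). It had 4.95 and 4.80 CPM in CAPH2 KD libraries, against 4.12 and 3.24 CPM in shControl libraries (0.41, SE 0.19, adjusted p = 0.188). Neither pair of groups overlapped, and neither difference passed. TOP3B had 8.77 and 9.17 CPM in ARID1A KO libraries, against 7.27 and 9.13 CPM in ARID1A WT libraries, which overlap (0.13, SE 0.13, adjusted p = 0.519). It had 7.98 and 7.35 CPM in CAPH2 KD libraries, against 8.60 and 8.94 CPM in shControl libraries (−0.19, SE 0.13, adjusted p = 0.389). In the knockdown the groups of TOP3B did not overlap. With 93 to 351 counts a library, the SE of both genes exceeded 0.13, so small changes were not detectable at this depth.

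The ratio of TOP3A to TOP3B per length was 0.433 and 0.400 in ARID1A KO libraries, against 0.542 and 0.553 in ARID1A WT libraries. It was 0.636 and 0.670 in CAPH2 KD libraries, against 0.491 and 0.372 in shControl libraries. The ratio was lower in the knockout and higher in the knockdown than in its own controls, without overlap (two-sided exact permutation p = 0.333 in each pair, the smallest possible). The difference between the knockout and knockdown effects on TOP3A was −0.68 (SE 0.27) and did not pass (adjusted p = 0.0911); it passed without ARID1A WT library 1 (−0.85, adjusted p = 0.0441, in a range of 0.0441 to 0.282 over 14 alternatives).

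CTCF, which halts loop extrusion, had 58.4 and 55.6 CPM in ARID1A KO libraries, against 61.6 and 63.8 CPM in ARID1A WT libraries. It had 62.7 and 60.7 CPM in CAPH2 KD libraries, against 70.9 and 66.4 CPM in shControl libraries. The perturbed libraries were below their controls without overlap in both pairs. Neither difference passed (−0.14, SE 0.061, adjusted p = 0.108 in the knockout, and −0.15, SE 0.061, adjusted p = 0.117 in the knockdown), nor did it under any of 15 alternatives each. The difference between these effects was 0.016 (adjusted p = 0.919).

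YY1, the enhancer and promoter bridging factor, had 80.9 and 86.8 CPM in ARID1A KO libraries, against 93.3 and 116 CPM in ARID1A WT libraries. The groups did not overlap, and the fall passed (log2 fold change −0.32, SE 0.090, adjusted p = 0.0176). The spread of the wild-type pair carried into this value: it was −0.15 without ARID1A WT library 2 (adjusted p = 0.125), −0.47 without ARID1A WT library 1, and −0.27 without ARID1A KO library 1 (adjusted p = 0.127, the highest of 15 alternatives that began at 3.09e-05). In CAPH2 KD libraries YY1 had 105 and 95.7 CPM, against 106 and 108 CPM in shControl libraries, which did not pass (−0.093, adjusted p = 0.557).

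On chromosome 14, 28 of the 40 nearest genes of YY1 were called lower in the knockout and 2 higher (17.8% and 16.8% of all genes), with a median of −0.47. YY1 minus that median was 0.15, so it had fallen less than most of its neighbours. The part of the neighbourhood in the fall was not tested. AL157871.6, a transcript that overlaps YY1 on the opposite strand, had 6.35% of the counts of YY1 over the 8 libraries. It had 72 and 78 counts in ARID1A KO libraries, against 82 and 73 in ARID1A WT libraries, and 343 and 397 in CAPH2 KD libraries, against 301 and 259 in shControl libraries. These counts are not scaled. ARID1A KO libraries held 35392307 and 37378691 counts in all, against 24559547 and 27144974 in ARID1A WT libraries. Relative to library size, AL157871.6 was thus lower in both ARID1A KO libraries than in both ARID1A WT libraries, and this was not tested. Since the strand setting of the counting is not given, reads of both genes cannot be told apart. For the other members, overlapping genes and pseudogenes named after them held at most 1.1% of the member's counts.

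ZNF143, an activator at many promoters and snRNA genes, had 58.3 and 58.9 CPM in ARID1A KO libraries, against 61.0 and 54.0 CPM in ARID1A WT libraries. The knockout values lay between the wild-type ones (0.029, SE 0.067, adjusted p = 0.78). It had 43.9 and 42.8 CPM in CAPH2 KD libraries, against 48.0 and 47.7 CPM in shControl libraries, lower without overlap but not past the test (−0.14, SE 0.068, adjusted p = 0.195). Genes next to ZNF143 on chromosome 11 had a median of −0.21 in the knockout, with 16 of 40 called lower and 3 higher (17.8% and 16.8% of all genes).

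MAZ, a zinc finger factor of GC-rich promoters, had 5.54 and 6.42 CPM in ARID1A KO libraries, against 4.75 and 6.41 CPM in ARID1A WT libraries, which overlap (0.095, SE 0.17, adjusted p = 0.711). It had 6.37 and 6.13 CPM in CAPH2 KD libraries, against 7.64 and 7.04 CPM in shControl libraries (−0.23, SE 0.16, adjusted p = 0.404). Those groups did not overlap, and the difference did not pass at the depth of 115 to 252 counts a library.

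shControl cells were also compared with ARID1A WT cells, since both are controls. The members that changed were 2 of 9, both lower, against 19.2% of all genes (9.13% higher and 10.1% lower). TOP1, at 90.4 and 83.0 CPM in shControl libraries against 112 and 111 CPM in ARID1A WT libraries, was lower (−0.36, SE 0.067, adjusted p = 0.00309). The call was lost without shControl library 2 (−0.30, adjusted p = 0.0502, in a range of 3.7e-06 to 0.0502 over 15 alternatives). ZNF143, at 48.0 and 47.7 CPM in shControl libraries against 61.0 and 54.0 CPM in ARID1A WT libraries, was lower as well (−0.26, SE 0.068, adjusted p = 0.0189). That call was lost without ARID1A WT library 1 (−0.18), shControl library 1 (−0.27) or shControl library 2 (−0.26), and with only these 4 libraries fitted (−0.26, adjusted p = 0.0643, in a range of 0.00296 to 0.111 over 15 alternatives). TOP2A differed by −0.097 (adjusted p = 0.152) and MAZ by 0.39 (adjusted p = 0.136), both called without ARID1A WT library 2 (−0.12 and 0.63; adjusted p = 0.0289 and 0.0439, the lowest of 15 alternatives that reached 0.427 and 0.533). This comparison shares its wild-type libraries with that of the knockout.

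TOP2A transcripts accumulate in the G2 phase of dividing cells, so 25 genes of the G2 and M phases were listed beside it. In the knockout, 12 of the 25 were called higher and 3 lower (16.8% and 17.8% of all genes), with a median log2 fold change of 0.18 (0.00 over all genes). Without ARID1A KO library 2 fewer of the 25 were called higher, and without ARID1A WT library 2 more were. Fewer of all genes were called in the knockout in both of these fits. UBE2C, which drives exit from mitosis, had 48.3 and 53.6 CPM in ARID1A KO libraries, against 32.4 and 31.4 CPM in ARID1A WT libraries (0.68, SE 0.07, adjusted p = 2.1e-05). The proliferation marker MKI67 moved the other way from TOP2A, with 211 and 192 CPM in ARID1A KO libraries, against 377 and 382 CPM in ARID1A WT libraries (−0.91, SE 0.06, adjusted p = 5.4e-07).

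In the knockdown, 13 of the 25 genes were called lower and 0 higher (8.22% and 7.62% of all genes), with a median of −0.20. The number called lower depended on single libraries: it was smaller when any shControl or CAPH2 KD library was left out. Fewer of all genes were called in the knockdown in each of these fits too. MKI67 had 235 and 254 CPM in CAPH2 KD libraries, against 332 and 335 CPM in shControl libraries (−0.45, SE 0.06, adjusted p = 0.000391). TOP2A and MKI67 thus both fell in the knockdown, while in the knockout TOP2A rose and MKI67 fell. The difference between the knockout and knockdown effects was called higher for 15 of the 25 and lower for 3 (12.3% and 14.0% of all genes), with a median of 0.35. In shControl against ARID1A WT cells, 3 of the 25 were called higher and 7 lower (9.13% and 10.1% of all genes). NUSAP1, a spindle protein, had the lowest adjusted p of the rises there (0.41, SE 0.08, adjusted p = 0.00471) and CENPE, a kinetochore motor, that of the falls (−0.80, SE 0.11, adjusted p = 0.000549).

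**Figure D4:**
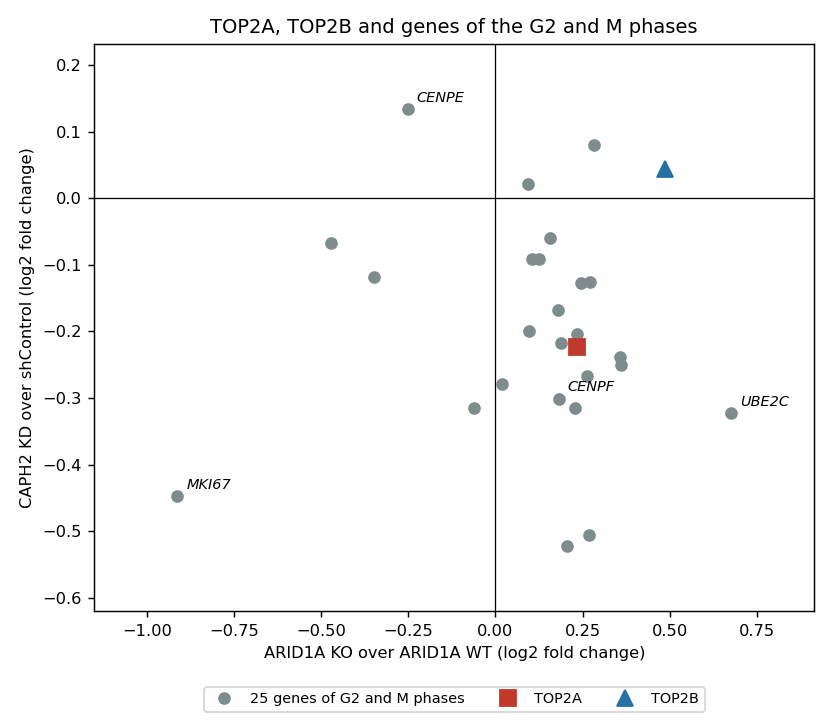
Log2 fold change in ARID1A KO over ARID1A WT cells (horizontal axis) and in CAPH2 KD over shControl cells (vertical axis) of TOP2A, TOP2B and 25 genes of the G2 and M phases; each point is a gene. TOP2A lies at 0.23 and −0.22 and MKI67 at −0.91 and −0.45.

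Partners of the topoisomerases and enzymes that repair trapped topoisomerases were 16 genes, all tested. In the knockout 4 were called higher and 3 lower, and in the knockdown 1 higher and 1 lower. Over all genes, 16.8% were called higher and 17.8% lower in the knockout, and 7.62% and 8.22% in the knockdown. FMR1, whose protein binds the complex of TOP3B and TDRD3, had 78.9 and 83.1 CPM in ARID1A KO libraries, against 135 and 132 CPM in ARID1A WT libraries (−0.73, SE 0.05, adjusted p = 1.41e-06). FMR1 was the gene called higher in the knockdown, also with any single library left out, with 248 and 254 CPM in CAPH2 KD libraries, against 180 and 174 CPM in shControl libraries (0.50, SE 0.05, adjusted p = 6.1e-05). The difference between these effects was −1.23 (SE 0.08, adjusted p = 4.86e-07). FMR1 was also higher in shControl than in ARID1A WT libraries (0.41, SE 0.05, adjusted p = 0.000441).

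SPRTN, a protease that removes proteins trapped on DNA, had the lowest adjusted p of the rises of this list in the knockout (0.30, SE 0.07, adjusted p = 0.0055). XRCC1, a scaffold of single-strand break repair, was the gene called lower in the knockdown, with 24.6 and 25.6 CPM in CAPH2 KD libraries, against 31.0 and 30.0 CPM in shControl libraries (−0.28, SE 0.08, adjusted p = 0.038). This call was lost when any of these 4 libraries was left out, and fewer of all genes were called in the knockdown then. In the knockout, fewer genes of the list were called higher with any single library left out. Fewer were called lower without ARID1A WT library 1 or any ARID1A KO or shControl library. Fewer of all genes were called in the knockout in each of these fits too. For XRCC1 the difference between knockout and knockdown effects was 0.54 (SE 0.12, adjusted p = 0.00549), one of 2 called higher and 2 called lower (12.3% and 14.0% of all genes). BLM, the helicase that works with TOP3A, was the gene called lower in shControl than in ARID1A WT cells (−0.38, SE 0.08, adjusted p = 0.00743), where FMR1 was the gene called higher. Over all genes, 10.1% were called lower and 9.13% higher there.

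Of 18 paralogs and partners of the architecture factors, 16 were tested; CTCFL, the germline paralog of CTCF, and ZFP42, a paralog of YY1, had no count in any library. In the knockout, 1 was called higher and 5 lower (16.8% and 17.8% of all genes). The rise was that of SATB1, a genome organiser of lymphoid cells, with 2.55 and 2.90 CPM in ARID1A KO libraries, against 0.868 and 0.797 CPM in ARID1A WT libraries (1.71, SE 0.35, adjusted p = 0.00267). SATB1 is also one of the 40 nearest genes of TOP2B on chromosome 3 that were counted above. In the knockdown 0 of the 16 tested were called higher and 3 lower (7.62% and 8.22% of all genes). Among the 3 was VEZF1, a zinc finger factor, with 123 and 121 CPM in CAPH2 KD libraries, against 164 and 164 CPM in shControl libraries (−0.43, SE 0.05, adjusted p = 0.000137). In the knockdown, fewer genes of this list were called lower when any shControl, CAPH2 KD or ARID1A KO library was left out. More were called lower without either ARID1A WT library. The number of all genes called in the knockdown moved the same way. In the knockout, fewer were called lower without ARID1A WT library 2, ARID1A KO library 1 or ARID1A KO library 2. Fewer of all genes were called in the knockout in these fits too. Without ARID1A WT library 2, more of the list were called higher. For the difference between effects 1 was called higher, VEZF1 (0.33, SE 0.07, adjusted p = 0.00535), and 2 lower. Over all genes, 12.3% were called higher and 14.0% lower for this difference. In shControl against ARID1A WT cells, the remodeller gene CHD8 was called higher (0.20, SE 0.06, adjusted p = 0.0417) and MATR3, a nuclear matrix protein gene, lower (−0.19, SE 0.05, adjusted p = 0.0143). Over all genes, 9.13% were called higher and 10.1% lower there.

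Among 7 genes of the cohesin core and its loaders, which work with CTCF, 0 were called higher and 3 lower in the knockout, and 0 higher and 2 lower in the knockdown. Over all genes, 16.8% were called higher and 17.8% lower in the knockout, and 7.62% and 8.22% in the knockdown. STAG1, a cohesin subunit, had the lowest adjusted p among the falls in both, with 109 and 106 CPM in ARID1A KO libraries, against 142 and 131 CPM in ARID1A WT libraries (−0.34, SE 0.06, adjusted p = 0.0008), and 108 and 104 CPM in CAPH2 KD libraries, against 128 and 125 CPM in shControl libraries (−0.25, SE 0.06, adjusted p = 0.0112). The difference between effects was called higher for RAD21, the kleisin subunit (0.25, SE 0.08, adjusted p = 0.0343), and lower for NIPBL, the loader (−0.50, SE 0.09, adjusted p = 0.00144). Over all genes, this difference was called higher for 12.3% and lower for 14.0%. In shControl against ARID1A WT cells 2 of the 7 were called lower (10.1% of all genes), with the lowest adjusted p for NIPBL (−0.42, SE 0.06, adjusted p = 0.000952). The fall of RAD21 in the knockdown, with an adjusted p of 0.0474, was near the limit. The number called lower in the knockdown was smaller when any shControl, CAPH2 KD or ARID1A KO library was left out. It was larger without either ARID1A WT library. The number of all genes called in the knockdown moved the same way. With each of the other scalings, 1 of the 7 was called lower there. In the knockout, more of the 7 were called lower without ARID1A WT library 2, where fewer of all genes were called.

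Genes whose profile over the 8 libraries was nearest to a member that changed were sought among 9302 protein-coding genes with a mean of at least 5 CPM, by the root mean square difference of centred log2 levels. For TOP2A, whose own profile had a root mean square of 0.20, they were MAK16 (difference 0.036), PALB2 (0.038) and EIF2AK4 (0.040). For TOP2B (0.20) they were ARID2 (0.040), PIGBOS1 (0.041) and SCAMP1 (0.043). These rose by 0.44 to 0.46 in the knockout, and a rise similar to that of TOP2B was built into their choice. For YY1 (0.16) they were PI4KB (0.045), RPS21 (0.047) and RPL13 (0.056); the ribosomal protein genes have many near-identical pseudogenes, so their counts are uncertain. The nearest genes lie on other chromosomes than their member in all 9 cases, and the share of all searched genes that do so was not counted.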

How the data were processed

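RNA was measured in 8 libraries, prepared with a TruSeq total RNA kit per the labels' protocols. The values the authors deposited are expected counts by Ensembl gene, already whole, in a single table. RSEM 1.2.12, Bowtie2 and hg19 are named per the submitters' processing notes; the Bowtie2 version, annotation release and strand setting were not found in these sources. Symbols matched 28427 of 29952 counted IDs. GENCODE 29 on GRCh38 gave lengths, gene types, strands, gene order, overlapping genes and pseudogenes. It also gave symbols where the main source of names had none.

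edgeR 4.0.16 (R 4.3.3) tested the counts: filterByExpr, trimmed-mean scaling and a quasi-likelihood test over all 8 libraries (4 residual degrees of freedom, 16657 genes), with Benjamini-Hochberg adjustment over all genes and calls at an adjusted p under 0.05. The code was tested on simulated data. DESeq2 1.42.0 was an alternative. One count was worth 0.0261 to 0.0413 CPM. All 9 members were named, with the gene of lowest adjusted p called in each direction of 4 lists of related genes, and the 3 nearest profiles of each member that changed. Members and lists were chosen with earlier results of these data known. Protein sequences were not used here. Values of some listed genes are not reported here.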

Additional observations from a re-analysis of the deposited data

How the results depend on the processing

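No member's call changed with DESeq2, with median-of-ratios, upper-quartile or library-total scaling, or without the low-count filter. The sign of YY1 in shControl against ARID1A WT cells turned with library totals (−0.0023). Same-numbered libraries did not deviate together across genes (correlations −0.024 to 0.030), which cannot show whether they were handled together. With a replicate block 5500 genes were called in the knockout and 2483 in the knockdown. There were 4209 for the difference of effects and 3026 for shControl against ARID1A WT, and no member's call changed. With a fold of at least 1.5 as well, 0 members passed in any comparison, and 2800, 997, 2731 and 1012 genes did. With the 4 libraries of shControl and ARID1A WT alone, 1 member was called. Leaving out 1 library gave 0 to 1 members in the knockdown, 2 to 5 for the difference of effects (5 without ARID1A WT library 1, which added TOP3A, YY1 and ZNF143) and 0 to 4 for shControl against ARID1A WT; genes called were 1360 to 3494 in the knockdown and 1553 to 3410 for shControl against ARID1A WT. Members not called turned sign on leaving out 1 library: in the knockout TOP3B (−0.028 to 0.30), ZNF143 (−0.056 to 0.12) and MAZ (−0.10 to 0.33), in the knockdown TOP1 (−0.026 to 0.096), for the difference of effects CTCF (−0.031 to 0.063), and for shControl against ARID1A WT TOP3B (−0.060 to 0.27) and YY1 (−0.12 to 0.20). YY1 in the knockout was 0.15 after subtraction of its neighbours' median. The cause of these changes was not tested. With 2 libraries a group and 93 to 351 counts for TOP3A, TOP3B and MAZ, small changes of these genes were not detectable. List counts under the same alternatives were added after the data were seen.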
